A study of Arabidopsis thaliana with 64 samples.

Results

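The 9 genes described here are the 6 CYCLING DOF FACTOR genes of Arabidopsis and the 3 genes of the FKF1 family. They are CDF1 (AT5G62430), CDF2 (AT5G39660), CDF3 (AT3G47500), CDF4 (AT2G34140), CDF5 (AT1G69570), CDF6 (AT1G26790), FKF1 (AT1G68050), ZTL (AT5G57360) and LKP2 (AT2G18915). They were chosen by family name out of 32833 loci in each count file, and CDF5 was selected on its rise in the elf3-1 mutant, so its level in elf3-1 against Col-0 is given as a description with no test.

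The CDF proteins are DNA-binding repressors of the DOF class that hold down CONSTANS (CO) and FLOWERING LOCUS T (FT), the genes that start flowering in long days. FKF1, ZTL and LKP2 are F-box proteins that sense blue light through a LOV domain and bind GIGANTEA (GI), and FKF1 with GI marks CDF proteins for degradation in the afternoon. ELF3, ELF4 and LUX form the evening complex of the circadian clock, which binds promoters and represses transcription at night. A natural antisense RNA of CDF5 is known under the name FLORE, and the lncRNA locus AT1G69572, which overlaps CDF5, was followed beside it.

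The study profiled RNA of 16 lines and the chromatin bound by tagged ELF3 in the same species. The chromatin lines were ELF3pro::ELF3-MYC elf3-1, its cross with ELF4-ox, ELF3pro::BdELF3, ELF3-ox, BdELF3-ox and StELF3-ox. ELF3pro::ELF3-Q15 and ELF3pro::ELF3-Q20, named for polyglutamine lengths, and ELF3pro::ELF3-BdPrD, named for the Brachypodium prion-like domain, were profiled for chromatin only. Seedlings for RNA grew for 10 days in short days of 8 h of light and 16 h of dark, and each library was made from pooled seedlings. The labels do not state the hours of harvest, which limits every level below, because these genes cycle over the day. The mutant lines were elf3-1 and its cross elf3-1 X ELF4-ox, then elf4-2 with its own cross elf4-2 X ELF3-ox. These 4 lines had 1 library at 27 °C and 1 at 22 °C. ELF4-ox had the same pair, and ELF3-ox had 1 library each at 12, 22 and 27 °C. StELF3-ox, named for the potato protein, had 1 library at each of these temperatures. BdELF3-ox, named for the Brachypodium protein, had 1 at 12 °C, 1 at 22 °C and 3 at 27 °C. ELF3pro::BdELF3 had 1 library, at 27 °C. The lines named for polyglutamine lengths in ELF3, 21 (ELF3pro::ELF3-Q21 #7 and #23), 7 (ELF3pro::ELF3-Q7 #6 and #17) and 0 (ELF3pro::ELF3-Q0 #15 and #2) had 5, 3 and 5 libraries at 27 and 22 °C. Col-0 had 2 libraries at 27 °C and 1 at 22 °C. All lines carry the cultivar label Col-0, the promoter of the lines named -ox is not stated, and the labels do not say which lines with an ELF3 transgene also lack the native gene. Every sample is labelled single, and nothing says that samples of 1 group came from separate sowings. Of 33 groups of line and temperature, 29 held 1 library. The p-values therefore measure the spread of libraries around a fit of line, temperature and the number that opens the sample title. That spread holds temperature responses that differ between lines as well as differences between like libraries, which may in part be technical.

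The gene counts per library were 4381010 to 25649275 (median 12076203). The mutant alleles could not be checked by their own 3' reads: ELF3 had 17.5 to 26.7 CPM (a counts-per-million value, scaled by edgeR's TMM factors) in elf3-1 libraries, against 17.2 to 29.95 in Col-0. ELF4 was at 38.1 CPM at 27 °C and 31.99 CPM at 22 °C in elf4-2, against 59.8 to 67.5 in Col-0. ELF4 was at 110.5 CPM at 27 °C and 95.5 CPM at 22 °C in ELF4-ox, while ELF3 in ELF3-ox was at 9.42 CPM at 12 °C, 37.2 at 22 °C and 35.1 at 27 °C. A pair of libraries stood apart. Summed over 8 root marker genes, BdELF3-ox 27C replicate 2 had 0.724 CPM with 4 of them at 0, and the library of ELF3pro::BdELF3 had 1.58 CPM with 6 at 0, against 68.1 to 212.8 CPM in all others, although the source is labelled seedling. Leaf markers were high in every library (5554 to 19720 CPM summed over 5 genes). In bulk seedlings, fewer cells of a type and less RNA per cell cannot be told apart.

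CDF5, CDF2 and CDF3 were high in the lines that carry elf3-1, intermediate in those with elf4-2 and low in nearly all others. CDF5 had 20.7 CPM at 27 °C and 19.3 CPM at 22 °C in elf3-1. In elf3-1 X ELF4-ox it had 25.2 CPM at 27 °C and 20.7 CPM at 22 °C. The lines with elf4-2 were lower, and more so at 22 °C. In elf4-2 it had 13.6 CPM at 27 °C and 4.63 CPM at 22 °C. In elf4-2 X ELF3-ox it had 12.7 CPM at 27 °C and 1.52 CPM at 22 °C. Of the remaining 30 libraries, CDF5 was highest in BdELF3-ox 27C replicate 2 with 4.89 CPM, 1 of the pair low in root markers, and the median was 0.404 CPM. The 4 libraries with elf3-1 did not overlap any other library, whereas elf4-2 and elf4-2 X ELF3-ox at 22 °C lay within the range of the 30. At 22 °C alone, the highest of the lines without elf3-1 or elf4-2 was ELF3-ox with 0.708 CPM, below both lines with elf4-2.

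The low CDF5 values rested on few reads. StELF3-ox had 1.76 CPM at 12 °C, 0.501 at 22 °C and 2.64 at 27 °C. ELF3-ox had 0.330 CPM at 12 °C, 0.708 at 22 °C and 0.154 at 27 °C. BdELF3-ox had 0.744 CPM at 12 °C, 0 at 22 °C and 0.347, 4.89 and 0.310 at 27 °C, so its 3 libraries at 27 °C differed widely. ELF3pro::BdELF3 had 0.528 CPM. In the lines with ELF3 of different length, levels were under 1.3 CPM throughout. In the Q21 lines CDF5 had 1.28, 0.951 and 0.735 CPM at 27 °C, against 0.0784 and 0.316 CPM at 22 °C. In the Q7 lines it had 0.662 CPM at 27 °C, against 0.206 and 0.460 CPM at 22 °C. The Q0 lines had 0.0519, 0.511 and 0 CPM at 27 °C and 0 in both libraries at 22 °C, so 3 of the 5 Q0 libraries had no read of CDF5. ELF4-ox had 0 CPM at 27 °C and 0.144 CPM at 22 °C. In Col-0 the level was 1.42 and 1.14 CPM at 27 °C and 0.251 CPM at 22 °C. Apart from StELF3-ox at 12 and 27 °C and 1 BdELF3-ox library, no line without elf3-1 or elf4-2 stood above the Col-0 libraries.

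CDF2, a close relative that represses CO and FT together with CDF1, CDF3 and CDF5, followed the same order at a larger range. It had 52.3 CPM at 27 °C and 42.8 CPM at 22 °C in elf3-1. In elf3-1 X ELF4-ox it had 63.5 CPM at 27 °C and 39.0 CPM at 22 °C. Those with elf4-2 lay lower or beside them, with 39.0 CPM at 27 °C and 22.0 CPM at 22 °C in elf4-2, and 39.8 CPM at 27 °C and 25.6 CPM at 22 °C in elf4-2 X ELF3-ox. The other 30 libraries had 1.47 to 25.4 CPM with a median of 7.30 CPM, and the highest was ELF3pro::ELF3-Q21 #23 at 27 °C. The elf3-1 libraries did not overlap these 30, while elf4-2 at 22 °C did. Among these lines at 22 °C alone, the highest was StELF3-ox with 7.32 CPM, below both lines with elf4-2. Col-0 had 21.3 and 13.1 CPM at 27 °C and 4.89 CPM at 22 °C.

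CDF3 had 4.82 CPM at 27 °C and 6.39 CPM at 22 °C in elf3-1, and 5.54 CPM at 27 °C and 4.52 CPM at 22 °C in elf3-1 X ELF4-ox. It had 3.37 CPM at 27 °C and 2.05 CPM at 22 °C in elf4-2, and 2.98 CPM at 27 °C and 2.32 CPM at 22 °C in elf4-2 X ELF3-ox. The other 30 libraries ran from 0.0868 to 5.43 CPM with a median of 0.512. The value of 5.43 CPM was again BdELF3-ox 27C replicate 2, and the next of these was StELF3-ox at 27 °C with 1.95 CPM. Without that 1 library, all 8 libraries with elf3-1 or elf4-2 were above the rest.

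**Figure D1:**
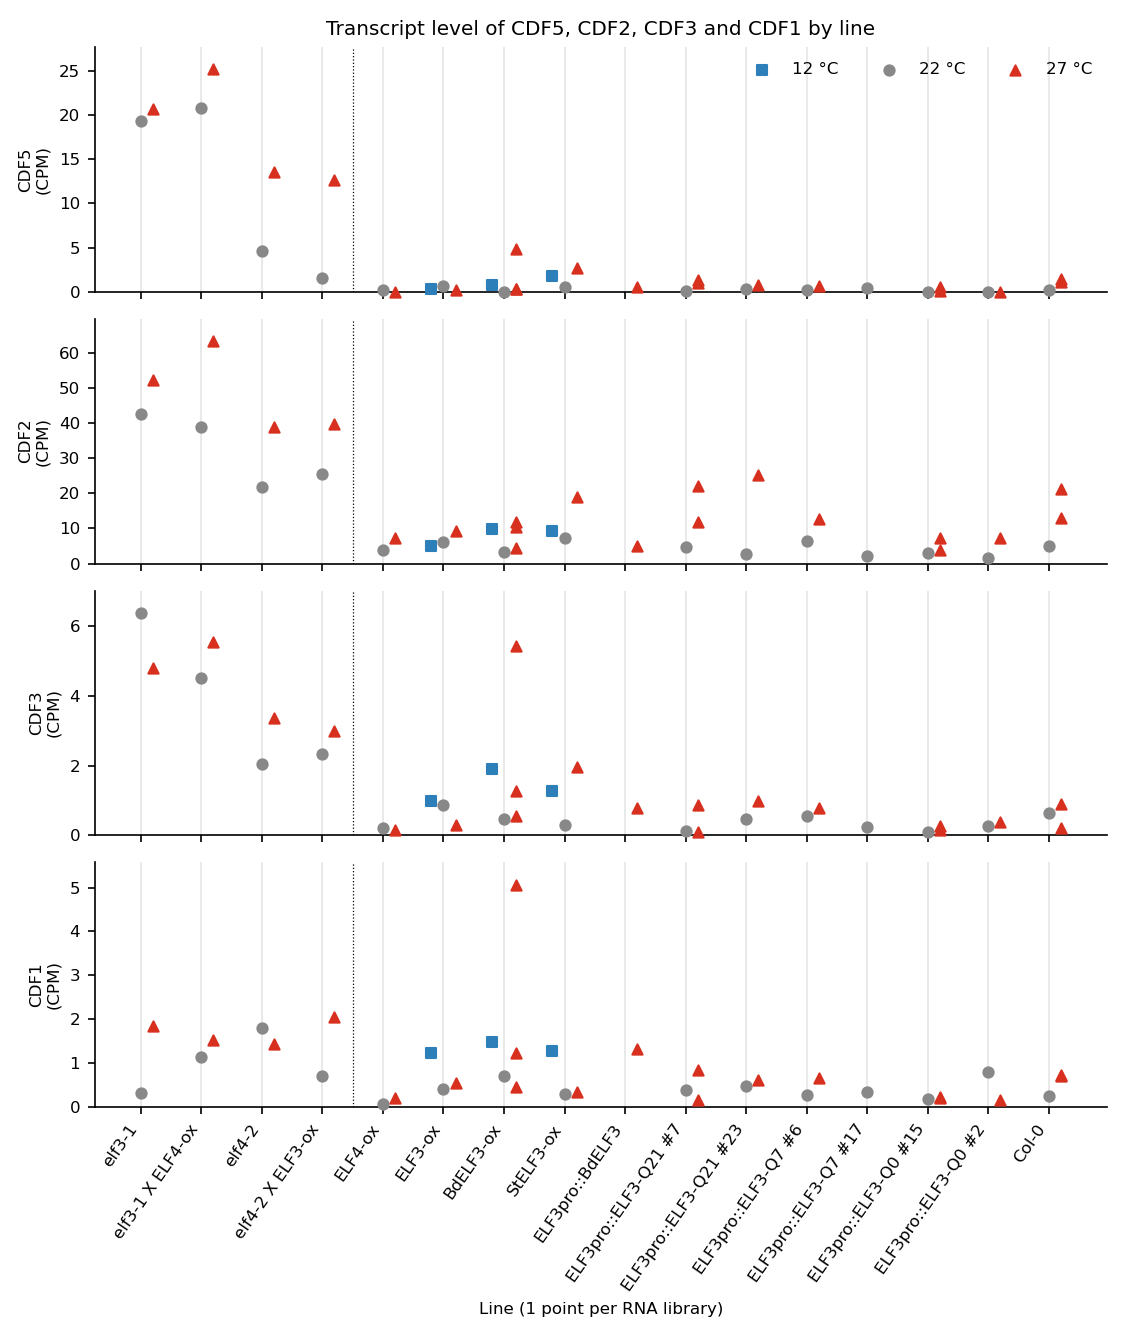
Transcript level in CPM (y axis, linear) of CDF5, CDF2, CDF3 and CDF1 in 38 RNA libraries, with lines along the x axis, 1 point per library and colour and shape for 12, 22 and 27 °C. Lines left of the dotted line carry elf3-1 or elf4-2: CDF5 reaches 25.2 CPM there and stays at or under 4.89 CPM in the others, while the CDF1 values of the 2 sides overlap, with the highest, 5.07 CPM, in BdELF3-ox 27C replicate 2.

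CDF1 showed the pattern less clearly, and CDF4 and CDF6 gave no such step. CDF1, the founding member of the group, ranged from 0.32 to 1.85 CPM in the 4 libraries with elf3-1, from 0.714 to 2.05 CPM in the 4 with elf4-2 and from 0.0721 to 5.07 CPM in the rest. The medians were 1.34 CPM with elf3-1, 1.61 CPM with elf4-2 and 0.469 CPM in the rest. The 3 sets overlapped, the value of 5.07 CPM was BdELF3-ox 27C replicate 2, low in root markers, and the gene was covered by 394 reads over all 38 libraries. CDF4 was detected throughout at 5.55 to 14.5 CPM, with 7.77 to 9.93 CPM in the libraries with elf3-1. CDF6 had 1 read in total, in ELF3-ox at 12 °C, out of 483186400 gene counts, so nothing can be said of its changes at this depth, and it was not tested.

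Relative to Col-0, the fitted log2 change in elf3-1 (2 libraries against 3) was 5.34 ± 0.91 (SE) for CDF5, a 40.6-fold difference. It was 3.56 ± 0.72 for CDF3 and 2.11 ± 0.44 for CDF2. The others were 1.03 ± 0.97 for CDF1, -0.08 ± 0.27 for CDF4, -0.79 ± 0.25 for FKF1, -0.49 ± 0.23 for LKP2 and -0.00 ± 0.29 for ZTL. These values describe the contrast on which CDF5 was selected and carry no p. Single libraries moved some of them. Without elf3-1 at 22 °C, CDF2 had a log2 change of 1.32 ± 0.62, CDF1 of 2.22 ± 1.18 and LKP2 of -0.77 ± 0.34. Without elf3-1 at 27 °C, CDF2 had 2.61 ± 0.51 and CDF1 -0.53 ± 1.36, so the sign for CDF1 was not fixed. Without Col-0 at 22 °C, ZTL had 0.37 ± 0.29.

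Loss of ELF3 was tested in libraries that the selection of CDF5 did not use, elf3-1 X ELF4-ox against ELF4-ox. Both lines carry ELF4-ox, and the 2 libraries at each temperature share the number that opens their sample titles, which was a term of the fit (the title prefix). CDF5 had 395 reads at 27 °C and 326 at 22 °C in elf3-1 X ELF4-ox, against 0 reads at 27 °C and 2 at 22 °C in ELF4-ox. At 27 °C this was at least 118-fold higher, taking 3 reads per library (0.214 CPM) as the floor in ELF4-ox. Over both temperatures the reads were 721 in elf3-1 X ELF4-ox and 2 in ELF4-ox, a ratio of 320.0 after scaling to library size, with an exact 95% interval of 88.3 to 2650.0 that covers counting error only. The fitted log2 change was 8.18 ± 1.27, with an adjusted p of 0.00264 in edgeR's quasi-likelihood test.

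CDF2 had 63.5 and 39.0 CPM in elf3-1 X ELF4-ox at 27 and 22 °C, against 7.41 and 3.82 CPM in ELF4-ox. The log2 change was 3.22 ± 0.50 (edgeR adjusted p = 0.00215). CDF3 had 87 and 71 reads in elf3-1 X ELF4-ox at 27 and 22 °C, against 2 and 3 reads in ELF4-ox, with a log2 change of 4.73 ± 0.83 (edgeR adjusted p = 0.00594). These were the 3 of 8 tested members that passed, all of them higher, where 0.449% of all 19587 tested genes were called higher. CDF1 had 24 and 18 reads in elf3-1 X ELF4-ox at 27 and 22 °C, against 3 and 1 in ELF4-ox. Its ratio over both temperatures was 9.32 (exact 95% interval 3.38 to 35.8, counting error only), and its log2 change of 3.21 ± 1.06 did not pass (edgeR adjusted p = 0.263). FKF1 (-0.08 ± 0.25), ZTL (0.13 ± 0.30), LKP2 (-0.24 ± 0.23) and CDF4 (-0.11 ± 0.27) did not pass either.

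With 2 libraries a line, these calls depended on single libraries. Without ELF4-ox at 27 °C none of the 3 members passed, and CDF5 had a log2 change of 6.79 ± 1.60 (edgeR adjusted p = 0.204). Without ELF4-ox at 22 °C only CDF5 passed, and CDF3 missed the threshold without any 1 of the 4 libraries (edgeR adjusted p of 0.0533 to 0.27), its log2 change staying between 4.27 and 5.24. The root markers summed to 171 and 213 CPM in elf3-1 X ELF4-ox at 27 and 22 °C, against 75.7 and 109 CPM in ELF4-ox, with 0 of the 8 called by edgeR or DESeq2, 2 at an unadjusted p under 0.05, and none at 0. Of all 19587 tested genes, 1543 had an unadjusted p under 0.05 there. Seed storage markers summed to 3.88 and 23.6 CPM in elf3-1 X ELF4-ox, against 5.42 and 1.23 CPM in ELF4-ox. Of the 5 leaf markers, PSAD1 and LHCB2.1 were called higher, where 0.449% of all genes were. Their part in the result was not tested.

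The lncRNA locus AT1G69572 had 34.3 and 18.7 CPM in elf3-1 X ELF4-ox at 27 and 22 °C, against 6.77 and 12.0 CPM in ELF4-ox. Its log2 change of 1.38 ± 0.35 did not pass in edgeR (adjusted p = 0.0787) and did in DESeq2 (adjusted p = 0.0127). In elf3-1 it had 29.2 CPM at 27 °C and 16.5 CPM at 22 °C. The locus overlaps CDF5, and no source states whether reads were counted by strand, so reads from the pair cannot be told apart. It was nevertheless detected where CDF5 was at or near 0, with 12.0 CPM in ELF4-ox at 22 °C beside 0.144 CPM of CDF5. Across the 30 libraries without elf3-1 or elf4-2, Pearson's r of the log2(CPM + 1) values of the pair was 0.439, a description over libraries that share temperatures and title prefixes.

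**Figure D2:**
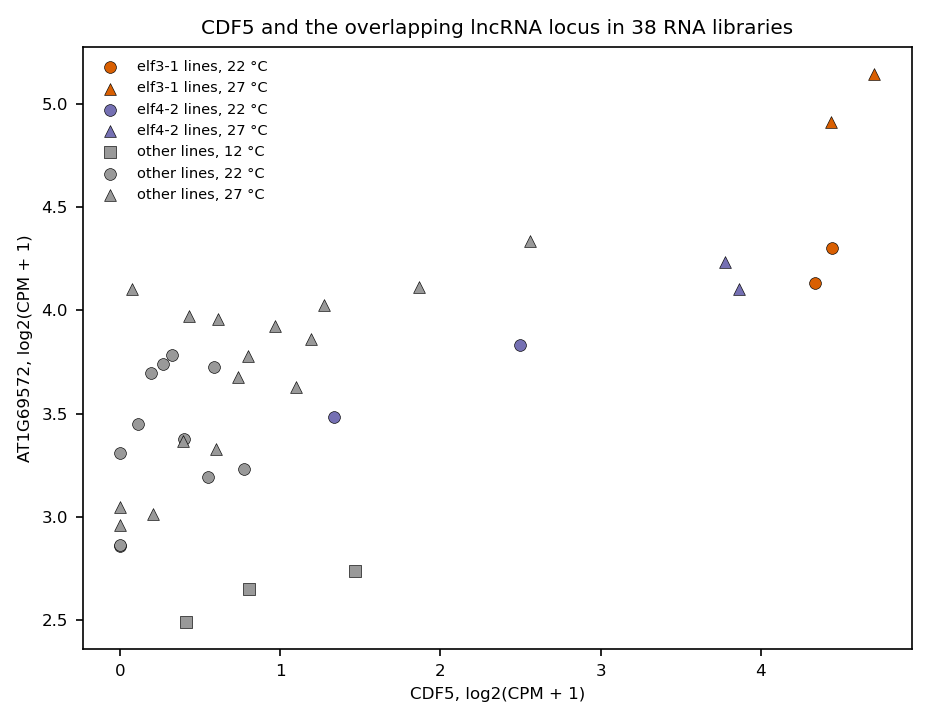
Level of the overlapping lncRNA locus AT1G69572 (y axis) against CDF5 (x axis), both as log2(CPM + 1), 1 point per RNA library, coloured by elf3-1 lines, elf4-2 lines and other lines and shaped by temperature. The 4 libraries with elf3-1 lie at the far right, and the 3 libraries at 12 °C lie lowest on the y axis at 4.63 to 5.67 CPM.

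Loss of ELF4 was compared in elf4-2 X ELF3-ox against ELF3-ox, where edgeR called 0 of 8 members and 0.0408% of all genes. At an unadjusted p under 0.05 there were 4 members, against 4.42% of all genes, and DESeq2 called 1, against 0.168% of all genes. The 4 were CDF2, CDF3 and CDF5 with positive and FKF1 with negative log2 changes. CDF2 had 39.8 and 25.6 CPM in elf4-2 X ELF3-ox at 27 and 22 °C, against 5.12, 6.22 and 9.38 CPM in ELF3-ox at 12, 22 and 27 °C. Its log2 change was 2.28 ± 0.43 with an adjusted p of 0.0557 in edgeR, and it was the gene that DESeq2 called (adjusted p = 0.000964). CDF5 had a log2 change of 3.78 ± 0.92 (edgeR adjusted p = 0.249), CDF3 of 2.14 ± 0.65 (edgeR adjusted p = 0.662) and FKF1 of -0.52 ± 0.24 (edgeR adjusted p = 1.00).

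Without the pair of libraries low in root markers, which belong to neither line but enter the shared estimate of spread, CDF2 and CDF5 passed in this comparison (edgeR adjusted p of 0.0168 and 0.0151). Without ELF3-ox at 22 °C, CDF5 alone passed, with a log2 change of 6.44 ± 1.06 (edgeR adjusted p = 0.0378). Root markers summed to 127 and 133 CPM in elf4-2 X ELF3-ox at 27 and 22 °C, against 112, 89.2 and 68.1 CPM in ELF3-ox at 12, 22 and 27 °C. Seed markers reached 146 CPM in elf4-2 X ELF3-ox at 22 °C, the highest of all libraries, and the part of either in the result was not tested.

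For elf4-2 against Col-0, edgeR called 0 of 8 members (0.0817% of all genes) and DESeq2 0. At an unadjusted p under 0.05 there were 3, against 6.09% of all genes: CDF5 with 4.30 ± 1.1, CDF3 with 2.80 ± 0.90 and CDF2 with 1.30 ± 0.53 on the log2 scale. Without the pair low in root markers, CDF5 passed with 4.22 ± 0.86 (edgeR adjusted p = 0.035). Neither elf4-2 nor ELF4-ox (prefixes 177 and 178) has a title prefix in common with Col-0 (181 and 184), so the fit ties them to Col-0 through other lines. The comparisons of elf4-2, ELF3-ox, ELF4-ox and elf3-1 with Col-0 share the same 3 Col-0 libraries. ELF3-ox against Col-0 gave 0 members by edgeR (0.0306% of all genes), 0 at an unadjusted p under 0.05 (3.66% of all genes) and 0 by DESeq2. ELF4-ox against Col-0 likewise gave 0 by edgeR (0.00511%), 0 at an unadjusted p under 0.05 (3.32%) and 0 by DESeq2. The SE there was large for CDF5, with a log2 change of 0.37 ± 1.14 in ELF3-ox and -2.38 ± 1.85 in ELF4-ox. For CDF2 the log2 change was -0.61 ± 0.48 in ELF3-ox and -1.16 ± 0.56 in ELF4-ox.

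On the log2 scale, the fitted F-box changes in elf3-1 and elf4-2 against Col-0 were smaller than those of CDF5, CDF2 and CDF3. FKF1 had 7.23 CPM at 27 °C and 3.62 CPM at 22 °C in elf3-1, against 8.88 and 8.09 CPM at 27 °C and 8.27 CPM at 22 °C in Col-0. In elf4-2 it had 7.59 CPM at 27 °C and 5.20 CPM at 22 °C. LKP2 had 23.4 CPM at 27 °C and 17.8 CPM at 22 °C in elf3-1, against 36.4 and 27.6 CPM at 27 °C and 19.9 CPM at 22 °C in Col-0. ZTL, which also targets the clock proteins TOC1 and PRR5, had 74.9 to 95.02 CPM in the 4 libraries with elf3-1, inside the range of the rest. FKF1 peaked in the pair of libraries low in root markers, with 30.9 CPM in ELF3pro::BdELF3 and 20.1 CPM in BdELF3-ox 27C replicate 2. Every other library had 12.0 CPM or less, including the other BdELF3-ox libraries at 27 °C with 11 and 10.9 CPM. What the low root markers contribute was not tested.

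**Figure D3:**
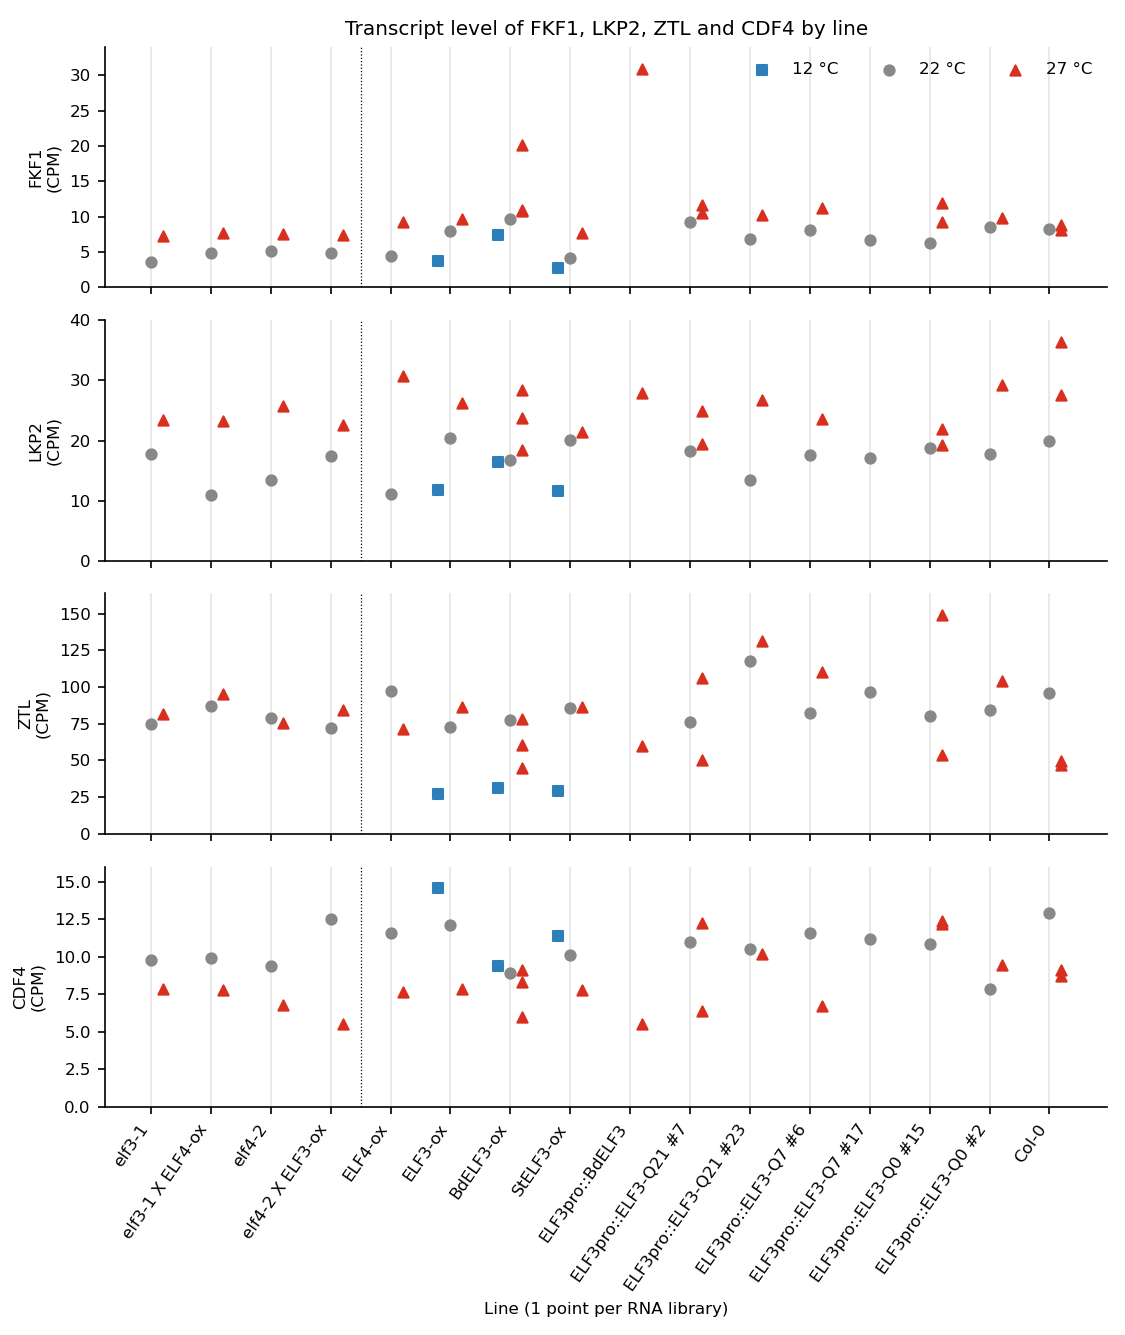
Transcript level in CPM (y axis, linear) of FKF1, LKP2, ZTL and CDF4 in 38 RNA libraries, with lines along the x axis and 1 point per library, coloured and shaped by temperature. FKF1 is highest at 30.9 CPM in ELF3pro::BdELF3 at 27 °C, and the 3 ZTL values at 12 °C (26.9 to 31.2 CPM) lie below all others.

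Most of the family differed between 27 and 22 °C. At 27 °C against 22 °C over all lines, 5 of 8 tested members were higher in edgeR, where 17.7% of all genes were, and 1 was lower, where 16.7% were. The median log2 change of the 8 members was 0.64, against 0.01 for all tested genes. The harvest hour of the groups is not given, so the hour and the temperature cannot be told apart. DESeq2 called the same number, 6.

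CDF2 was higher at 27 °C in 14 of 14 lines with both temperatures, by ratios of 1.22 in elf3-1 to 9.45 in ELF3pro::ELF3-Q21 #23 (median 1.97). Its 20 libraries at 27 °C had a median of 12.4 CPM (3.95 to 63.5), against 4.89 CPM (1.47 to 42.8) in the 15 at 22 °C. The ranges overlapped because lines differ, and the log2 change fitted within lines was 1.32 ± 0.19 (edgeR adjusted p = 1.79e-05). CDF5 was higher at 27 °C in 11 of 14 lines, with a log2 change of 1.88 ± 0.47 (edgeR adjusted p = 0.0044). Only 7 of the 14 lines had more than 3 reads of it at 22 °C. The widest gaps in CPM were in elf4-2, with 13.6 CPM at 27 °C and 4.63 CPM at 22 °C, and elf4-2 X ELF3-ox, with 12.7 CPM at 27 °C and 1.52 CPM at 22 °C. CDF3 was higher in 10 of 14 lines (9 of the 14 had more than 3 reads of it at 22 °C), with a log2 change of 0.87 ± 0.30 (edgeR adjusted p = 0.030). It missed the threshold with no prefix term (0.58 ± 0.33, edgeR adjusted p = 0.197) and without any 1 of BdELF3-ox, ELF3pro::ELF3-Q21 #7, elf4-2 or StELF3-ox (edgeR adjusted p of 0.0547 to 0.0886). CDF1 did not pass (0.66 ± 0.38, edgeR adjusted p = 0.187).

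CDF4 went the other way. It was lower at 27 °C in 12 of 14 lines, with a median ratio of 0.778 and a log2 change of -0.41 ± 0.10 (edgeR adjusted p = 0.00407). Its libraries at 27 °C had a median of 7.86 CPM (5.55 to 12.3), against 10.8 CPM (7.88 to 12.9) at 22 °C. ELF3pro::ELF3-Q0 #15 and #2 were the 2 lines in which it was not lower, with ratios of 1.13 and 1.20.

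FKF1 was higher at 27 °C in 14 of 14 lines, with ratios from 1.03 in Col-0, which is close to level, to 2.09 in ELF4-ox and a log2 change of 0.58 ± 0.09 (edgeR adjusted p = 7.28e-05). LKP2, the least studied of the 3 F-box genes, was higher in 14 of 14 lines as well, by 1.07 in StELF3-ox to 2.75 in ELF4-ox, with a log2 change of 0.63 ± 0.09 (edgeR adjusted p = 1.75e-05). ZTL did not pass, at 0.05 ± 0.11 (edgeR adjusted p = 0.746). In Col-0 alone (2 libraries at 27 °C, 1 at 22 °C) no member passed in edgeR, CDF2 had a log2 change of 1.76 ± 0.53 (edgeR adjusted p = 0.0686), and FKF1 had -0.00 ± 0.51. AT1G69572 was higher at 27 °C, by 0.45 ± 0.13 (edgeR adjusted p = 0.0120).

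Only 7 lines had both temperatures in the same title prefix. In these, CDF2 (1.51 ± 0.28, edgeR adjusted p = 0.012) and LKP2 (0.49 ± 0.13, edgeR adjusted p = 0.0473) passed. CDF5 had 2.04 ± 0.79 (edgeR adjusted p = 0.13), FKF1 0.57 ± 0.16 (0.0538), CDF3 0.93 ± 0.54 (0.293) and CDF4 -0.42 ± 0.17 (0.134). ZTL varied with the prefix itself: at 27 °C it had 46.9 to 60.8 CPM in the 4 libraries of prefix 184 and 103.9 to 131.5 CPM in the 4 of prefix 178. LKP2 differed by prefix at 22 °C, with 10.9 to 13.5 CPM in prefix 178, 17.1 to 20.4 CPM in prefix 177 and 16.8 to 20.05 CPM in prefix 181. In ELF4-ox, which gave the highest ratios of LKP2 and FKF1, the library at 27 °C was of prefix 177 and that at 22 °C of prefix 178. Root markers had 0.724 to 173 CPM at 27 °C (median 91.9), against 73.7 to 213 CPM at 22 °C (median 107), and 2 of the 8 were called lower, while 4 of 5 leaf markers were called lower, where 16.7% of all genes were. Their part in the changes of the members was not tested.

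**Figure D4:**
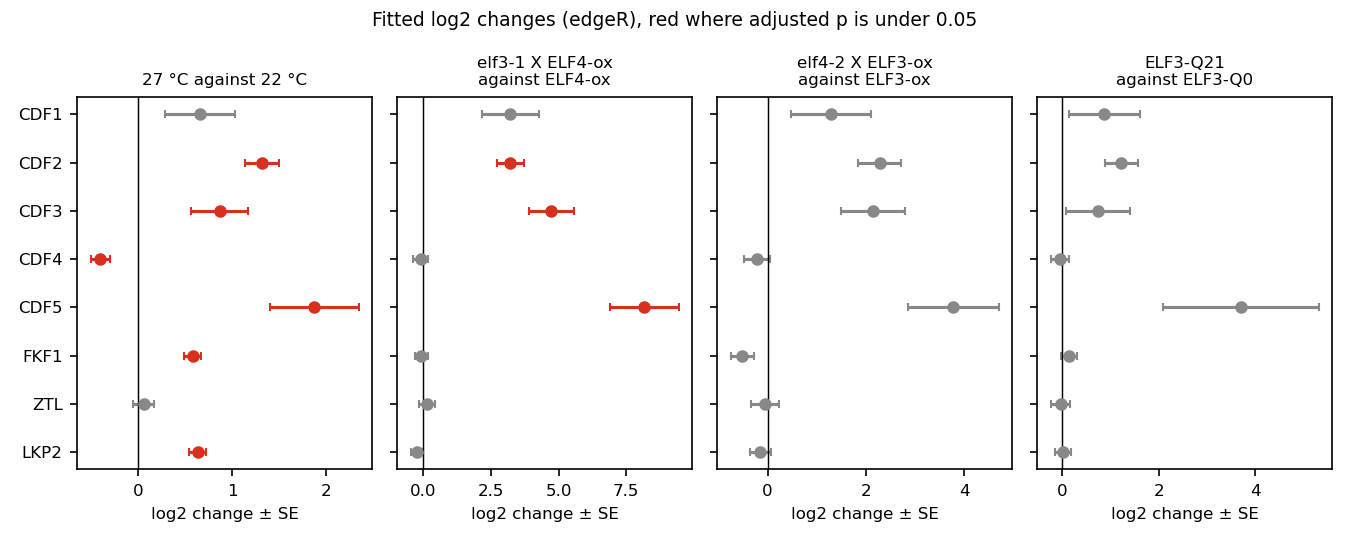
Fitted log2 change (x axis, points with SE bars) of the 8 tested members (y axis) in 4 comparisons, from edgeR on 38 RNA libraries, red where the adjusted p was under 0.05. At 27 °C the CDF2, CDF3, CDF5, FKF1 and LKP2 points lie right of 0 and CDF4 left of it, while in elf3-1 X ELF4-ox only CDF2, CDF3 and CDF5 are red.

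The 27 °C response was not shown to differ between the mutant lines and the others. For the 27 °C response in the lines with elf3-1 against the other lines, edgeR called 0 of 8 members (0.0% of all genes) and 0 had an unadjusted p under 0.05 (1.26% of all genes). The difference was -0.89 ± 1.16 for CDF5 and -0.78 ± 0.57 for CDF2 on the log2 scale, and the SE for CDF5 was larger than the difference. CDF5 at 22 °C was lower in the elf4-2 lines than in those with elf3-1 (1.52 and 4.63 against 19.3 and 20.7 CPM) while the levels at 27 °C lay closer. The test of this, added after these values were seen, gave 1.34 ± 1.21 for the 27 °C response in elf4-2 lines against elf3-1 lines. There edgeR called 0 members (0.0% of all genes), and 0 had an unadjusted p under 0.05 (1.33% of all genes). DESeq2 called 0 members in both.

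At 12 °C there were 3 libraries, of ELF3-ox, StELF3-ox and BdELF3-ox, all of title prefix 184. That prefix held no library at 22 °C, so the fit ties the temperatures through the 27 °C libraries. By edgeR 0 of 8 members passed for 12 °C against 22 °C (6.09% of all genes), 3 had an unadjusted p under 0.05 (21.7% of all genes), and DESeq2 called 2 (8.56% of all genes). The 3 were CDF3 with a log2 change of 2.33 ± 0.76, CDF2 with 1.46 ± 0.46 and ZTL with -0.78 ± 0.29. ZTL had 26.9, 29.2 and 31.2 CPM at 12 °C, against 71.9 to 118 CPM in the 15 libraries at 22 °C. ZTL was low in prefix 184 at 27 °C as well, and with no prefix term its change was -1.38 ± 0.29. CDF2 had 5.12, 9.29 and 9.75 CPM at 12 °C, against 6.22, 7.32 and 3.33 CPM in the same lines (ELF3-ox, StELF3-ox and BdELF3-ox) at 22 °C. FKF1 had 3.72, 2.74 and 7.38 CPM at 12 °C in these lines, against 7.98, 4.11 and 9.63 CPM at 22 °C, and its fitted change was -0.31 ± 0.24.

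Versions of ELF3 were compared next. For BdELF3-ox against ELF3-ox, edgeR called 0 of 8 members (0.0% of all genes), 1 had an unadjusted p under 0.05 (2.43% of all genes) and DESeq2 called 0. The 1 was FKF1, with 7.38 CPM at 12 °C, 9.63 at 22 °C and 11, 20.1 and 10.9 at 27 °C in BdELF3-ox, against 3.72, 7.98 and 9.69 CPM in ELF3-ox at 12, 22 and 27 °C, and a log2 change of 0.68 ± 0.23 (edgeR adjusted p = 1.00). For StELF3-ox against ELF3-ox, edgeR called 0 (0.0% of all genes), 0 had an unadjusted p under 0.05 (1.61% of all genes) and DESeq2 called 0.

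For ELF3-Q21 against ELF3-Q0, edgeR called 0 of 8 members (0.0153% of all genes) and DESeq2 0, while 2 had an unadjusted p under 0.05 (3.37% of all genes). CDF2 had 22.0, 11.7 and 25.4 CPM in the Q21 lines at 27 °C, against 7.32, 3.95 and 7.28 CPM in the Q0 lines at 27 °C. At 22 °C it had 4.62 and 2.69 CPM in Q21, against 3.13 and 1.47 CPM in Q0. The log2 change was 1.22 ± 0.34 (edgeR adjusted p = 1.00). CDF5 had a log2 change of 3.70 ± 1.61 (edgeR adjusted p = 1.00), from levels under 1.3 CPM. For ELF3-Q7 against ELF3-Q0, edgeR called 0 (0.00511% of all genes) and DESeq2 0, and CDF5 was the 1 member with an unadjusted p under 0.05 (2.77% of all genes), at 4.55 ± 1.92 on the log2 scale. Each length had 2 lines, and ELF3 transcript differed between them, from 83.1 to 351.5 CPM in Q0, against 37.0 to 117.6 CPM in Q21 and 52.2 to 121 CPM in Q7.

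The partner and target genes of the family were read from a list of 20, of which 18 were tested. GI, which binds FKF1 and ZTL, had 20.1 and 17.7 CPM in elf3-1 X ELF4-ox at 27 and 22 °C, against 0.285 and 0.361 CPM in ELF4-ox. It was the 1 gene of the list that passed in that comparison (5.83 ± 1.02, edgeR adjusted p = 0.00594), where 0.449% of all genes were called higher. CO had a log2 change of 0.74 ± 0.48 there (edgeR adjusted p = 0.842). FT and its relative TSF could not be followed, with 16 and 49 reads over all 38 libraries.

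At 27 °C against 22 °C, 7 of the 18 rose and 2 fell, with a median log2 change of 0.24. Of all tested genes, 17.7% were called higher and 16.7% lower. CO fell by 0.82 ± 0.20 (edgeR adjusted p = 0.00293), and the chaperone gene HSP90-2 fell by 0.41 ± 0.09 (edgeR adjusted p = 0.000975). The blue light receptor CRY1 rose by 0.34 ± 0.06 (edgeR adjusted p = 0.00038), and COP1, a ubiquitin ligase that acts on CO protein, rose by 0.35 ± 0.08 (edgeR adjusted p = 0.00195). GI did not pass (0.69 ± 0.35, edgeR adjusted p = 0.132).

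Of 12 clock genes, 11 were tested. At 27 °C against 22 °C 6 were higher and 0 lower, beside 17.7% and 16.7% of all genes. The 6 included LUX (0.89 ± 0.14), BOA (0.56 ± 0.07), RVE4 (0.87 ± 0.11) and RVE8 (0.86 ± 0.17). In elf3-1 X ELF4-ox against ELF4-ox 2 were higher (0.449% of all genes): PRR7, a repressor of CCA1 and LHY, by 3.91 ± 0.68, and LUX by 2.57 ± 0.38. In elf4-2 X ELF3-ox against ELF3-ox LUX was the 1 that passed (0.0408% of all genes), at 2.33 ± 0.34 (edgeR adjusted p = 0.0123). At 12 °C PRR7 was higher (2.22 ± 0.61) and BOA lower (-1.66 ± 0.17), where 6.09% of all genes were called in either direction.

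The other DOF genes, 20 transcription factors that share the DNA-binding domain of the CDF proteins, were read from a list that leaves out the CDF genes. At 27 °C 2 were higher and 6 lower, beside 17.7% and 16.7% of all genes, with a median log2 change of -0.09. The 4 of smallest p were DOF2.1 (-0.41 ± 0.09), HCA2 (-0.56 ± 0.15), OBP2 (-0.39 ± 0.11) and DOF2.2 (-0.23 ± 0.07), all lower. In elf3-1 X ELF4-ox against ELF4-ox 0 of the 20 were called by edgeR and 0 by DESeq2, and the median log2 change was 0.06. An unadjusted p under 0.05 was found for 5 of the 20, and for 1543 of all 19587 tested genes. At 12 °C 3 were lower (676 of all 19587 tested genes were): DOF1.8 (-0.83 ± 0.22), DAG2 (-0.94 ± 0.25) and OBP3 (-0.77 ± 0.23). These lists were chosen with earlier results of these data known, and no list was tested as a whole.

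Among the members themselves, CDF5 followed CDF3 most closely in the 30 libraries without elf3-1 or elf4-2, with a Pearson's r of log2(CPM + 1) of 0.775. In the same libraries r was 0.716 for CDF1 and CDF3, 0.617 for CDF2 and CDF5, 0.636 for FKF1 and LKP2 and -0.648 for CDF4 and FKF1. These are descriptions over libraries that share temperature and title prefix, and CDF5, CDF3 and CDF1 all have their highest value of the 30 in BdELF3-ox 27C replicate 2.

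Among 12865 genes that averaged 5 CPM or more, those most like CDF5 over the 38 libraries were AT5G06980, GI, STO, AT3G16800 and COL5, with r of 0.93, 0.924, 0.919, 0.895 and 0.894. Without the lines with elf3-1 (34 libraries) they were STO, GI, PIL6, AT5G06980 and COL5, with r of 0.885, 0.876, 0.828, 0.822 and 0.804. STO and COL5 encode B-box proteins. For FKF1 the 5 over 38 libraries were RPS6 (AT5G46470), J20, AT3G51510, AT5G25440 and AT5G43190, with r of 0.878, 0.875, 0.841, 0.813 and 0.806. Since the lines with elf3-1 or elf4-2 form clusters of their own for CDF5, r was also taken within the other 30 libraries, where it was 0.872 for CDF5 and GI and 0.832 for CDF5 and STO. It was lower there for the others, at 0.706 for CDF5 and AT5G06980, 0.667 for CDF5 and COL5 and 0.66 for CDF5 and AT3G16800. For FKF1 it was 0.932 with J20, 0.873 with RPS6, 0.853 with AT3G51510, 0.846 with AT5G25440 and 0.767 with AT5G43190. The 30 hold the pair low in root markers, where FKF1 was highest. Over the 38 without the 2 farthest libraries, r to FKF1 was 0.829 for RPS6, 0.82 for J20 and 0.757 for AT3G51510. It was 0.675 for AT5G25440 and 0.785 for AT5G43190. CDF5 and GI both had their highest value of the 30 in BdELF3-ox 27C replicate 2 (4.89 and 13.2 CPM). All of these are descriptions.

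Binding of ELF3 near the family was read from peak lists of seedlings grown for 10 days at 17 or 22 °C, either left at that temperature or given 2 h at 27 °C from zeitgeber hour 8. Tags and antibodies differ between lines, and values were therefore ranked within a list by the authors' −log10 p, with the 2000 highest peaks kept. INPUT samples, without pull-down, gave the background. 1 list labelled StELF3-ox 22C replicate 2 has a name that says 27 °C, and the label was followed. ELF3pro::ELF3-MYC elf3-1 expresses tagged ELF3 from its own promoter in the mutant and had 2 lists at 17 °C. Both held 363 shared sites away from kept INPUT peaks, and 5 of the 9 members had one within 1000 bp, where 1.32% of 37899 genes did.

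The 5 were CDF1, CDF2, CDF5, CDF6 and FKF1. The CDF5 peak in replicate 1 spanned chr1:26162469-26165599 of TAIR10 and ranked 14th and 12th in replicates 1 and 2, with a fold enrichment given by the authors of 18.2 in replicate 1. The highest summit was at 26164676 in replicate 1 and at 26163498 in replicate 2, and CDF5 had 2 shared sites. The overlapping lncRNA locus AT1G69572 had 1 shared site within 1000 bp. CDF6 ranked 26 and 42, at chr1:9274960-9275733 with a fold of 14.4 in replicate 1. CDF2 ranked 39 and 53, at chr5:15878223-15879016 with a fold of 11.9. CDF1 ranked 93 and 81, at chr5:25070408-25071475 with a fold of 6.13. FKF1 ranked 1114 and 223, at chr1:25508054-25508777 with a fold of 2.98.

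CDF3 had a kept peak in both lists, at ranks 1944 and 282, but with summits at 17504190 and 17503153 of chromosome 3 that do not coincide. LKP2 (2693 and 13588) and ZTL (12871 and 22785) had only peaks outside the 2000. CDF4 had none in replicate 1 and one at rank 4799 in replicate 2. CDF1, CDF2, CDF5 and CDF6 ranked within the first 100 of both lists, and CDF6 had 1 read in the RNA libraries.

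In the cross with ELF4-ox, the ELF3-MYC list at 27 °C had kept peaks at CDF5 (rank 16), CDF6 (36), CDF3 (37), CDF2 (39), CDF1 (79), FKF1 (170) and LKP2 (832). At 17 °C the cross had CDF5 at rank 18, CDF6 at 34, CDF3 at 37 and CDF2 at 50, with CDF1 and FKF1 at 4804 and 13195. In ELF3-MYC without ELF4-ox the list at 27 °C kept CDF5 at 20, CDF3 at 65, CDF1 at 313 and CDF6 at 1502, and CDF2 lay outside the 2000, at 4259. Each is 1 list, and a rank depends on depth and list, so no change in binding is read from these.

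Across the 23 lists other than INPUT, a kept peak lay near CDF6 in 17, CDF3 in 16, CDF5 in 14, CDF1 in 13, FKF1 in 10, CDF2 in 8, LKP2 in 6, ZTL in 5 and CDF4 in 2. Between 1 and 7 members had one in each list, where 5.73 to 8.99% of all genes did. By temperature, CDF6 had a kept peak in 4 of 5 lists at 17 °C, 8 of 8 at 22 °C and 5 of 10 at 27 °C. CDF3 had 4 of 5, 8 of 8 and 4 of 10, and CDF5 4 of 5, 7 of 8 and 3 of 10. LKP2 went otherwise, with 1 of 5, 1 of 8 and 4 of 10. Lines and title prefixes differ between the temperatures, so these counts were not tested. All lists at 22 °C share the same title prefix, and no list at 17 °C other than INPUT has it.

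In lines with lists at 27 and 22 °C, members near a kept peak are given with the share of all genes. ELF3pro::ELF3-Q15 had 1 at 27 °C (5.77%) and 7 at 22 °C (7.67%). ELF3pro::ELF3-Q20 had 2 at 27 °C (7.97%) and 5 at 22 °C (8.1%), and BdELF3-ox 3 (7.98%) and 6 (8.74%). ELF3pro::BdELF3 had 1 at 27 °C (8.41%) and 5 at 22 °C (8.19%), but also 1 at 17 °C (8.35%). ELF3pro::ELF3-BdPrD had 4 (8.29%) and 2 (8.34%) in its lists at 27 °C, against 5 at 22 °C (8.22%) and 5 at 17 °C (8.57%). ELF3-ox had ZTL alone in both lists at 27 °C (6.03 and 5.73%), at ranks 189 and 418, against 6 members at 22 °C (5.95%). Most of these are single lists, and no change in binding was tested. The ELF3pro::BdELF3 lists at 27 and 17 °C share a title prefix that its 22 °C list does not have. ELF3pro::ELF3-BdPrD at 17 °C and 1 of its lists at 27 °C also differ in prefix from its 22 °C list. The same holds for 1 ELF3-ox list at 27 °C. All kept ZTL peaks also lay within 1000 bp of AT5G57370, most of the LKP2 peaks near AT2G18910 and both CDF4 peaks near AT2G34100, so these peaks cannot be assigned to the members alone. The lncRNA locus AT1G69572, which overlaps CDF5, had a kept peak in 12 of the 23 lists. Peaks near both loci cannot be assigned to CDF5 alone. The INPUT lists kept 0 and 1 member, the 1 being FKF1 at rank 900, and 1 of the 10 kept FKF1 peaks overlapped a kept INPUT peak. For some members the summits of the kept peaks fell at 1 place, and for others they did not. They lay within 250 bp of their median in 17 of 17 lists for CDF6, 13 of 13 for CDF1, 8 of 8 for CDF2, 14 of 16 for CDF3, 8 of 14 for CDF5 and 5 of 10 for FKF1.

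**Figure D5:**
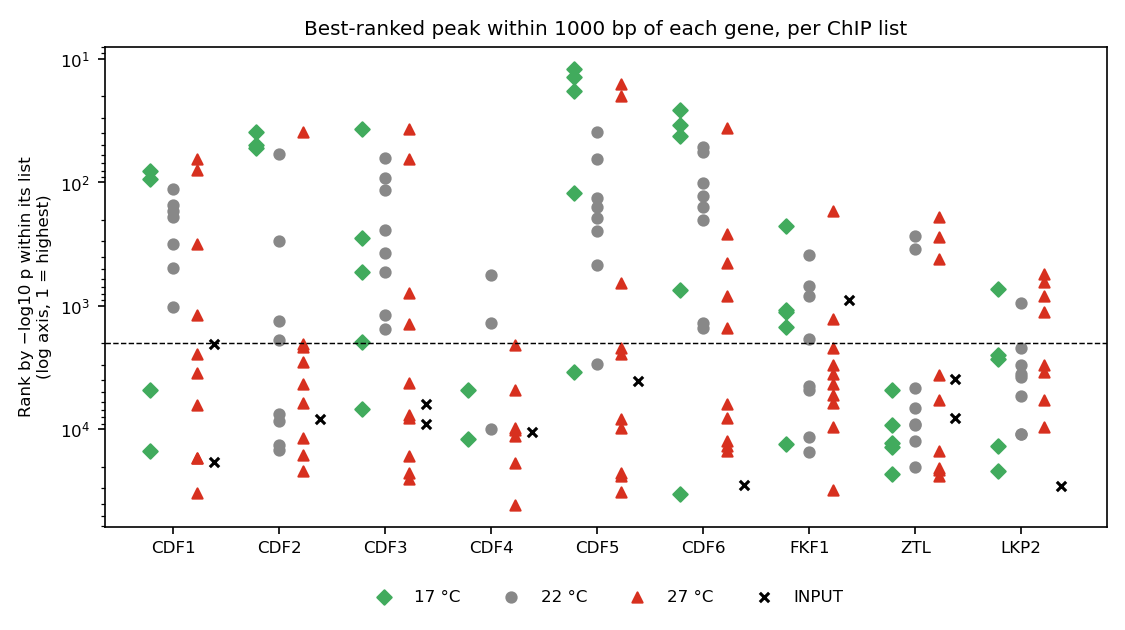
Rank by −log10 p (y axis, log scale, 1 at the top) of the best-ranked peak within 1000 bp of each member (x axis) in 25 ChIP peak lists, coloured by temperature, with INPUT lists as crosses and the dashed line at rank 2000. CDF5 and CDF6 have the highest-ranked peaks (ranks 12 and 26), while CDF4 has a peak inside the dashed line in 2 lists and INPUT lists have 1 such peak, at FKF1.

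Near the other lists, shared ELF3-MYC sites lay within 1000 bp of 7 of 12 clock genes, 3 of 20 partner genes (GI, TOC1 and PRR5) and 1 of 20 other DOF genes (OBP4). Of all genes, 1.32% had such a site. None lay near the 8 root or 4 seed markers, and 2 of the 5 leaf markers had one. CDF2 and CDF5 both had shared sites and passed in elf3-1 X ELF4-ox. FKF1 had a shared site and no called change in that comparison, and CDF3 passed with no shared site. Over the 23 lists other than INPUT, CDF3 had a kept peak in 16 and FKF1 in 10.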

How the data were processed

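RNA of 38 samples and chromatin of 26 ChIP samples was measured, and 25 peak lists were used. Not analysed here was replicate 1 of ELF3pro::ELF3-MYC elf3-1 at 27 °C. RNA values were deposited as unnormalized counts for each TAIR10 locus, from QuantSeq 3' FWD libraries per the labels' protocols, and the submitters' processing notes name STAR. No source used here names the counting tool or its strand setting. For each peak, the deposited lists give the fold enrichment as a ratio and −log10 of the p-value and q-value. There is 1 list per sample, and the same notes name MACS2, Trimmomatic, Bowtie2, Picard, deepTools and the build TAIR10.

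Counts were tested in R 4.3.3 with edgeR 4.0.16 (quasi-likelihood test, TMM) in 1 fit of all 38 libraries, with terms for line, temperature and the prefix of the sample titles (177, 178, 181 or 184). Of 32833 loci, 19587 had at least 1 CPM in at least 3 libraries and were tested, leaving 17 residual degrees of freedom, since 29 of 33 groups held 1 library. P-values were adjusted by Benjamini-Hochberg over all tested genes, with a threshold of 0.05. Each SE of an edgeR log2 change was worked back from the test, as the absolute log2 change divided by the square root of F. DESeq2 1.42.0, RLE factors, other filters, no prefix term, left-out libraries and fits of subsets were alternatives. The fit was tested on simulated data, with the same spread for every gene and changes planted only in genes averaging 5 CPM or more. CDF5, CDF3 and CDF1 averaged 3.67, 1.46 and 0.856 CPM, so their levels were not covered.

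Peaks on organelles were dropped and the 2000 of highest −log10 p kept per list. A gene was near where a summit lay within 1000 bp, and sites were shared where kept peaks of both ELF3-MYC 17C lists overlapped by at least 1 bp. Gene names and neighbourhood came from RefSeq TAIR10.1. Named beside the 9 members were GI, CO, FT, TSF and AT1G69572, up to 4 called genes of smallest p per list and comparison, and the 5 genes of highest Pearson's r to CDF5 and to FKF1. The members, lists and tests were chosen with earlier results of these data known.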

Additional observations from a re-analysis of the deposited data

How the results depend on the processing

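No paired analysis was possible because every sample is labelled single and no replicate number joins groups. Line, temperature and title prefix were joined only as terms of the fit. The count of members called at 27 °C against 22 °C, 6 as reported, was 0 in Col-0 alone and 2 in lines with both temperatures in 1 prefix, where fewer samples entered. Leaving out each line in turn gave 5 to 6. FKF1 in Col-0 alone had a log2 change of -0.00235 (SE 0.51), close to 0. At 12 °C against 22 °C, 0 as reported, the count was 2 with DESeq2, 2 without the prefix term (FKF1 and ZTL) and 2 without the pair low in root markers (CDF2 and CDF3). In elf3-1 X ELF4-ox against ELF4-ox, 3 as reported, leaving out 1 library gave 0 to 2. In elf4-2 X ELF3-ox against ELF3-ox, 0 as reported, the count was 1 with RLE factors, with DESeq2, with no filter and with a filter of 5 CPM (CDF2 in each), 2 without the pair low in root markers, and 0 to 1 when 1 library was left out. In elf4-2 against Col-0 it was 1 without that pair. The cause of these was not tested. With all peaks in place of the 2000, the pairs of member and list with a nearby peak numbered 188, against 91. CDF1 also passed in elf3-1 X ELF4-ox without that pair (3.17 ± 0.75, edgeR adjusted p = 0.0263). Counts of members in the other alternatives, 90 without a left-out library and 90 with one, stayed within 1.5 times the reported count. A count of 0 in both fits was taken as within that limit, as was 2 against 3. The limit therefore says little where no member was called. Depth limits CDF1, CDF3 and CDF6, and CDF5 outside the mutants.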
